A study of Sus scrofa with 20 samples.

Results

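Sorting nexins and retromer subunits are proteins of the endosome, and their mRNAs were measured in the amygdala of 10 high-reactive (HR) and 10 low-reactive (LR) pigs. The set was taken by gene symbol alone: every probe set of the array whose platform symbol was SNX followed by a number, or VPS26A, VPS26B, VPS29 or VPS35. This gave 52 of the 47845 probe sets in the table, for 30 genes. A filter on low values kept 40 of these 52 probe sets and 29 of the 30 genes. All 20 animals were German Landrace, and the study slaughtered them at an average age well under a year. Each contributed 1 array, and total RNA came from the whole amygdala with its sub-nuclei. The study scored coping by brief restraint on the back in early life. It then picked pigs that were extreme for this behavior and that carried a coping-associated haplotype on chromosome 12. HR and LR animals therefore differed in behavior and in haplotype together, and these cannot be told apart here. Values are on the log2 scale after the normalization of the authors, and differences are given as HR minus LR.

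Endosomes sort membrane proteins that have been taken up from the cell surface. Some are sent to lysosomes for breakdown, and others are returned to the surface or to the Golgi. Retromer returns cargo, and its core holds VPS35 as a scaffold, VPS29 at one end of it, and VPS26A or its paralog VPS26B at the other. Sorting nexins share the PX domain, which binds phosphoinositide lipids of endosomal membranes. Those with a BAR domain bend the membrane into tubules, those with a FERM domain bind cargo tails, and others hold little beside the PX domain. In neurons this route carries receptors for glutamate and for lipoproteins, the amyloid precursor protein and the sorting receptor SORL1, and mutations in VPS35 cause a familial form of Parkinson's disease in humans.

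The arrays differed in their background and in how closely they correlated with each other. The background mean, taken over 69 antigenomic control probe sets of the deposited table, averaged 4.21 over HR arrays (SD 0.13, n = 10), against 4.08 over LR arrays (SD 0.15, n = 10). The 2-sided permutation p was 0.0447, and it was 0.0894 without LR replicate 3. This animal had the lowest background mean, 3.71, and its array correlated with the rest at a median of 0.876, where the other 19 arrays reached 0.958 to 0.981. Among the 29 tested member genes it was the highest or the lowest LR array for 25. This was counted for member genes only, so it shows no trait particular to them. Among markers of the labelled tissue, the neuronal genes SNAP25, SYT1, STMN2 and NEFL had group means of 11.01 or higher, and RBFOX3 averaged 6.19 in HR and 6.15 in LR. Of 5 neuronal markers, 4 were lower in HR at an unadjusted p under 0.05, against 15.3% of all tested genes. With the background mean in the model 0 were, where 4.01% of all genes had such a p in either direction. The mean level of the 5 ranged from 10.1 to 10.6 in HR and from 10.4 to 10.97 in LR. Of 5 astrocyte markers, SLC1A2 at -0.56 and GJA1 at -0.41 were lower and GFAP at 0.18 was higher by the same threshold. Of 4 endothelial markers, PECAM1 was higher by it at 0.41, while VWF gave 0.21, CLDN5 0.10 and FLT1 -0.07. Of 3 tested choroid plexus markers, FOLR1 was higher at 0.20, while TTR gave 0.13 and KCNJ13 0.05. Over all tested genes, 14.2% were higher by this threshold. Choroid plexus markers varied widely within both groups, with a mean level of 6.05 to 9.81 in HR and 6.28 to 9.37 in LR. The 2 tested striatal markers had 5.90 to 6.99 in HR and 6.06 to 8.06 in LR. The 4 tested oligodendrocyte markers had 10.83 to 11.21 in HR and 10.72 to 11.42 in LR. In both lists 0 genes were higher and 0 lower at an unadjusted p under 0.05, against 29.5% of all tested genes. With the background mean in the model 1 oligodendrocyte marker, MAG, was lower, at -0.18. In tissue RNA, fewer cells of a type and less RNA per cell cannot be told apart. Whether background or cell mix had a part in the member differences was not tested beyond the values given below.

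Across the family members lay on both sides, and none passed the test over the whole table. The mean difference was above 0 for 16 and below 0 for 24 of the 40 tested probe sets. Counted by gene, on the probe set with the highest mean, 11 of 29 members lay above 0, against 5991 of all 10307 tested genes. By limma with adjustment over 23860 tested probe sets, 0 of 40 member probe sets passed an adjusted p of 0.05, and 2 of all 23860 did (0.00838%). The member adjusted p values started at 0.157. At an unadjusted p under 0.05, 21 of the 40 member probe sets (52.5%) were found, 9 higher and 12 lower in HR. This split was 10 higher and 9 lower with arrays centred on their medians. It was 9 and 9 with quantile normalization applied again, so these counts give no lean in either direction. The background over all tested probe sets was 26.3%, with 12.3% higher and 14% lower. Counted once per gene, by the probe set with the highest mean (its representative), 17 of 29 member genes had such a p, 8 higher and 9 lower in HR, against 29.5% of 10307 genes, 14.2% higher and 15.3% lower. With adjustment over probe sets, 1 of these 10307 genes (0.0097%) and 0 member genes passed. The median difference was -0.15 over the 29 member genes and 0.05 over all tested genes. Leaving out LR replicate 3 gave 14 of 40 (35%), against 18.5% of all, and the 7 no longer below 0.05 were VPS29, the brighter VPS26B probe set, SNX24, and probe sets of SNX13, SNX18, SNX27 and SNX29. Adding the background mean to the model gave 5 of 40 (12.5%), against 4.27% of all. Adding the first principal component gave 8 of 40 (20%), against 4.64% of all. Leaving out the 4 arrays that correlated least with the others gave 6 of 40 (15%), against 5.78% of all. The members were chosen with earlier results of these data known, so these shares are a description.

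**Figure D1:**
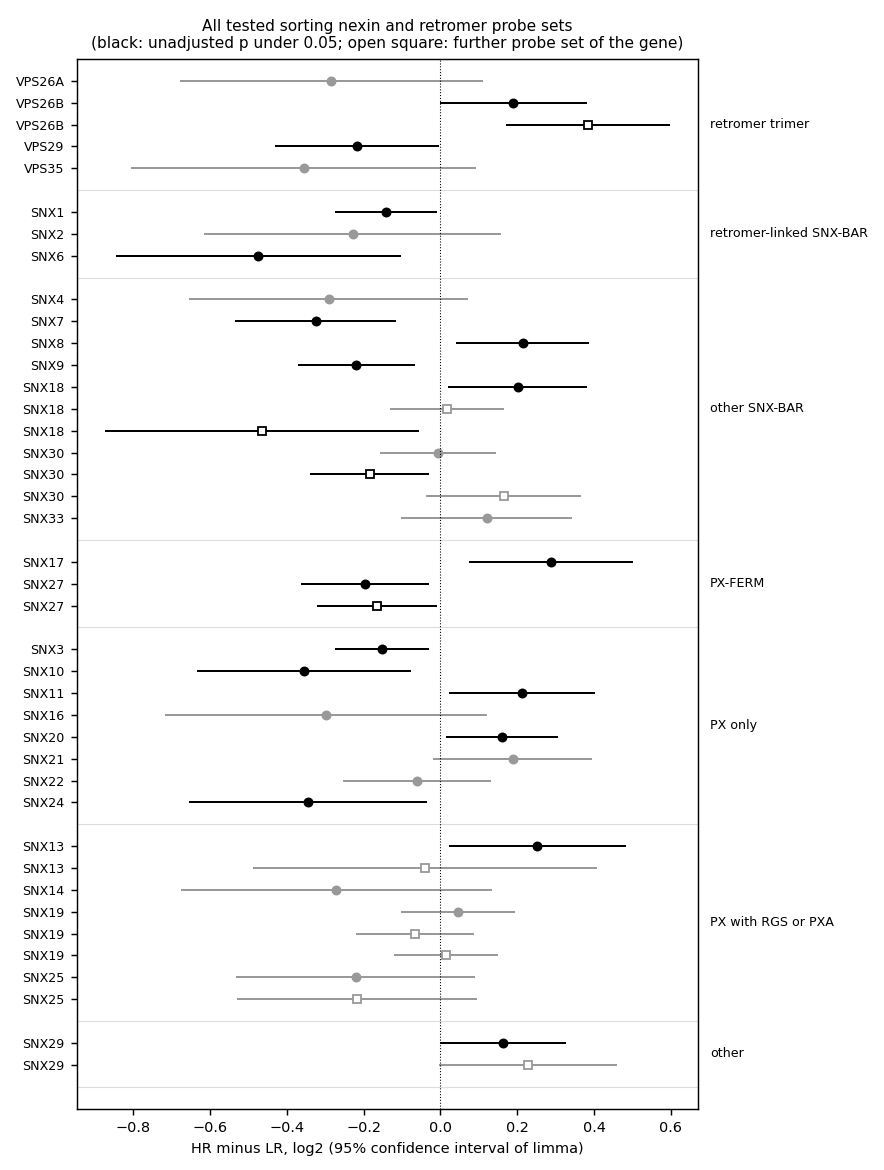
Difference of HR minus LR (x axis, log2) for each of the 40 tested probe sets, grouped by the role of the gene, with the 95% confidence interval of limma. Circles mark the probe set with the highest mean of each gene and open squares the further ones, and black marks an unadjusted p under 0.05. The intervals of 21 probe sets leave out 0, with 9 above and 12 below, and SNX18 has 1 on either side.

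In the retromer core the VPS26 paralogs lay on opposite sides, with VPS26B higher in HR and VPS26A, VPS29 and VPS35 lower in mean. VPS35, the scaffold, had a lowest, median and highest value of 7.80, 8.45 and 8.86 in HR, against 8.10, 8.63 and 10.29 in LR. All but 1 of the HR animals lay within the LR range, and the LR maximum was replicate 3, with replicate 2 next. The difference was -0.36 ± 0.22 (SE, unadjusted p = 0.111), it was -0.19 without LR replicate 3, and it was 0.02 with the background covariate. VPS29, which joins the far end of VPS35 and binds the RAB7 regulator TBC1D5, had 8.30, 8.67 and 8.98 in HR, against 8.62, 8.79 and 9.52 in LR. Here 5 HR animals lay below every LR animal, and 2 exceeded the LR median. Its difference was -0.22 ± 0.10 (SE), with an unadjusted p of 0.0443 and an adjusted p of 0.184. Leaving out LR replicate 3 gave -0.15, and the background covariate gave -0.04.

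VPS26A, the arrestin-like subunit found in most tissues, had 6.82, 7.999 and 8.39 in HR, against 7.71, 8.08 and 9.53 in LR. HR replicate 6 and LR replicate 3 stood far from the other animals of their groups, at the low and the high end. The difference of -0.28 ± 0.19 (SE) had an unadjusted p of 0.147. It was -0.14 without LR replicate 3, -0.02 with the background covariate, and 0.06 when the 4 arrays of lowest correlation, which include both of these, were left out. VPS26B, the paralog known to be enriched in brain in mice, was measured by a pair of tested probe sets. On the brighter one, values were 8.49, 8.83 and 9.03 in HR, against 8.12, 8.64 and 8.98 in LR, a difference of 0.19 ± 0.09 (SE) with an unadjusted p of 0.0481. On the dimmer one they were 5.74, 6.23 and 6.56 in HR, against 5.34, 5.89 and 6.17 in LR. There 8 of the 10 HR animals lay above every LR animal. This difference, 0.38 ± 0.10 (SE, 95% confidence interval 0.17 to 0.60), or 1.31-fold, had an unadjusted p of 0.00105, the smallest of all members, and an adjusted p of 0.157. The dimmer VPS26B probe set kept an unadjusted p under 0.05 in all 32 settings tried, with differences from 0.22 to 0.44, whereas the brighter one did in 13 of 32. VPS26A and VPS26B were tested separately, and the difference between the paralogs was not tested.

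**Figure D2:**
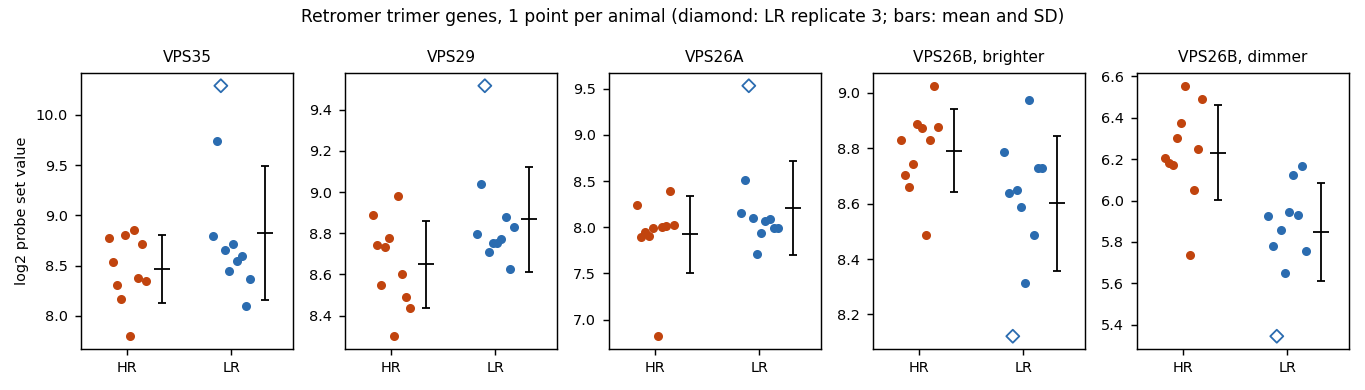
Log2 value of each animal (y axis, own scale in each panel) for VPS35, VPS29, VPS26A and both tested VPS26B probe sets, HR on the left and LR on the right, with mean and SD as black bars. LR replicate 3, drawn as an open diamond, is the highest LR animal for VPS35, VPS29 and VPS26A and the lowest for both VPS26B probe sets.

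Of the SNX-BAR proteins that form the membrane-bending partner of retromer, SNX1, SNX2 and SNX6 had probe sets here, and all 3 were lower in mean in HR. SNX6 had 5.99, 6.57 and 7.01 in HR, against 6.53, 6.74 and 8.14 in LR. Again 5 HR animals lay below every LR animal, and LR replicate 3 held the maximum. The difference of -0.47 ± 0.18 (SE), or 1.39-fold lower in HR, was the most negative of the representative probe sets and had an unadjusted p of 0.0140 and an adjusted p of 0.157. Leaving out LR replicate 3 gave -0.35, and the background covariate gave -0.15. SNX1, the founding member of the family, had 8.12, 8.28 and 8.46 in HR, against 8.21, 8.44 and 8.64 in LR. In this gene 1 HR animal exceeded the LR median. The difference was small, -0.14 ± 0.06 (SE, unadjusted p = 0.0355), and it was -0.16 when LR replicate 3 was left out and -0.15 with the background covariate. SNX2, which can stand in for SNX1, gave -0.23 ± 0.19 (SE, unadjusted p = 0.230), -0.06 when LR replicate 3 was left out and 0.07 with the background covariate. SNX1 and SNX22 are neighbouring genes in the RefSeq annotation of Sscrofa11.1, as are SNX2 and SNX24.

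Among the other BAR sorting nexins, SNX7 and SNX9 were lower and SNX8 was higher in HR before adjustment, and the probe sets of SNX18 disagreed. SNX7, which pairs with SNX4 in recycling and autophagy, had 6.52, 6.77 and 7.34 in HR, against 6.94, 7.16 and 7.43 in LR. In HR 7 of 10 animals lay below every LR animal, while HR replicate 1 lay near the top of the LR range. The difference was -0.32 ± 0.10 (SE, 95% confidence interval -0.53 to -0.12), with an unadjusted p of 0.00356 and an adjusted p of 0.157. SNX9, which works with dynamin when clathrin-coated vesicles are cut off the surface, had 7.24, 7.36 and 7.72 in HR, against 7.55, 7.59 and 7.81 in LR. Here 8 HR animals lay below every LR animal, and the other 2 lay within the LR range. Its difference of -0.22 ± 0.07 (SE, 95% confidence interval -0.37 to -0.07) had an unadjusted p of 0.00605 and an adjusted p of 0.157. SNX9 was the only gene whose representative probe set kept an unadjusted p under 0.05 in all 32 settings, from -0.25 to -0.16, and SNX7 did in 31. For SNX7 the exception was the fit with the animal number as a covariate, at -0.17, and this number largely followed the coping group.

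SNX8, linked to transport from endosomes to the Golgi, had 6.44, 6.62 and 6.91 in HR, against 6.01, 6.48 and 6.67 in LR. Of the HR animals, 9 lay above the LR median, and the difference was 0.21 ± 0.08 (SE, unadjusted p = 0.0160). Leaving out LR replicate 3 gave 0.17, and the background covariate gave 0.09. SNX18, a close relative of SNX9, was read by 3 tested probe sets that did not go together. The brightest gave 0.20 ± 0.09 (SE, unadjusted p = 0.0294), with 7.08, 7.50 and 7.71 in HR, against 7.01, 7.22 and 7.55 in LR. The second gave 0.02, and the dimmest gave -0.47 ± 0.20 (SE, unadjusted p = 0.0267). No direction can therefore be given for SNX18, and their mean was -0.08. SNX30 likewise gave -0.01, -0.18 and 0.16 on 3 probe sets, of which the second had an unadjusted p of 0.0202. SNX4, at -0.29 ± 0.17 (SE), and SNX33, at 0.12 ± 0.11 (SE), had unadjusted p values of 0.109 and 0.269.

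The FERM sorting nexins SNX17 and SNX27 also lay on opposite sides. SNX17 binds the tails of LRP1, of other lipoprotein receptors, of the amyloid precursor protein and of integrins, and returns them to the surface. The study placed SNX17 in its amygdala panel on these same samples, so its direction here is not independent evidence. Values of SNX17 were 8.97, 9.19 and 9.45 in HR, against 8.18, 8.97 and 9.31 in LR. Each of the 10 HR animals exceeded the LR median, 2 exceeded every LR animal, and 5 LR animals lay below every HR animal. The difference of 0.29 ± 0.10 (SE, 95% confidence interval 0.08 to 0.50), or 1.22-fold, had an unadjusted p of 0.00960 and an adjusted p of 0.157. Over the 20 fits that left out 1 array it lay between 0.21 and 0.33, with the lowest value without LR replicate 3, and each of these fits gave an unadjusted p under 0.05. With the background covariate it was 0.13 (unadjusted p = 0.133), and with the first principal component it was 0.07 (unadjusted p = 0.264).

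SNX27 carries a PDZ domain and links cargo such as the beta-2 adrenergic receptor and glutamate receptors to retromer. It had 8.71, 8.98 and 9.23 in HR, against 8.99, 9.16 and 9.40 in LR. Of the HR animals, 5 lay below every LR animal and 2 lay above the LR median. The difference was -0.20 ± 0.08 (SE, unadjusted p = 0.0209), and a second probe set gave -0.16 ± 0.07 (SE, unadjusted p = 0.0367). With the background covariate these were -0.07 and -0.10. SNX31, known from the urothelium in mice, had 3 probe sets with means of 2.02 to 4.27 over all arrays, and none passed the filter on low values.

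**Figure D3:**
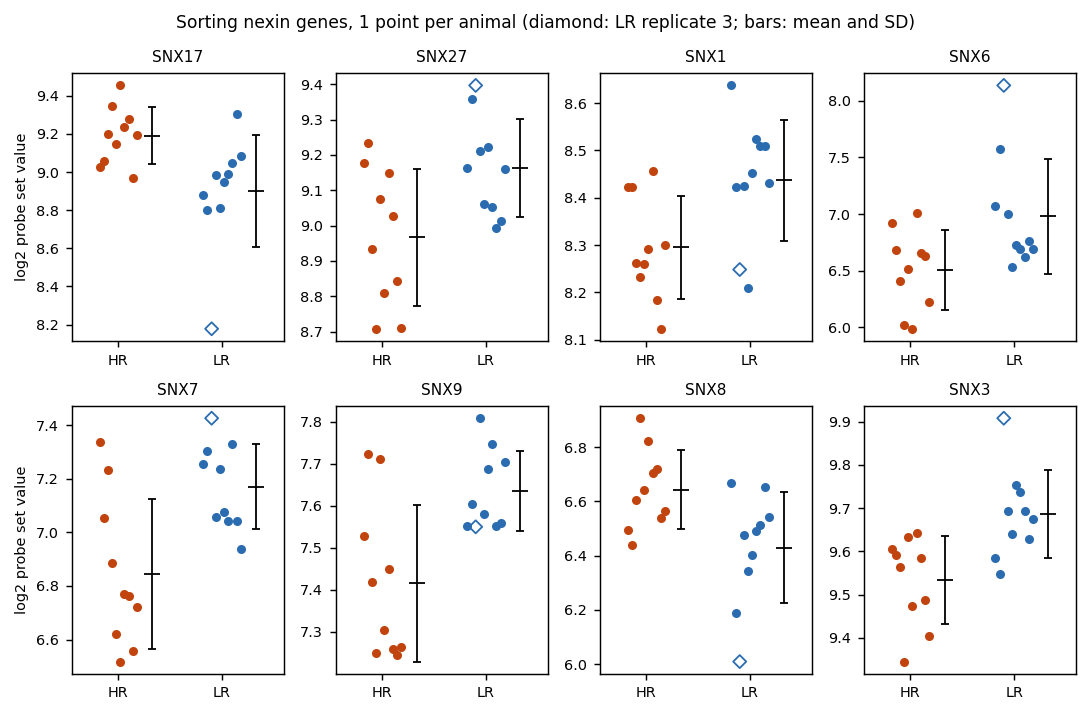
Log2 value of each animal (y axis, own scale in each panel) for 8 sorting nexin genes, HR on the left and LR on the right, with mean and SD as black bars and LR replicate 3 as an open diamond. HR animals sit higher for SNX17 and SNX8 and lower for the other genes, and the groups overlap in every panel.

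Sorting nexins with little beside a PX domain went both ways, with 2 of 8 tested genes higher and 3 lower in HR before adjustment. Over all tested genes these shares were 14.2% and 15.3%. SNX3, which recruits retromer to early endosomes and returns the Wnt carrier Wntless, had 9.35, 9.57 and 9.64 in HR, against 9.55, 9.68 and 9.91 in LR. None of the 10 HR animals reached the LR median, 4 lay below every LR animal, and 6 LR animals lay above every HR animal. The difference was nevertheless small, -0.15 ± 0.06 (SE, unadjusted p = 0.0154), or 1.11-fold lower in HR. Leaving out LR replicate 3 gave -0.13, and the background covariate gave -0.08. SNX10, a protein of acidified endosomes needed by bone-resorbing cells, had 8.26, 8.90 and 9.40 in HR, against 8.86, 9.12 and 9.75 in LR. Its difference was -0.35 ± 0.13 (SE, unadjusted p = 0.0141), and -0.12 with the background covariate. SNX24 gave -0.34 ± 0.15 (SE, unadjusted p = 0.0298), with 5.70, 6.21 and 6.52 in HR, against 6.01, 6.45 and 7.39 in LR.

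The PX genes higher in HR before adjustment were SNX11 and SNX20. SNX11 had 6.37, 6.51 and 6.67 in HR, against 5.73, 6.38 and 6.69 in LR, a difference of 0.21 ± 0.09 (SE, unadjusted p = 0.0284). HR values were packed closely, and the LR minimum was again replicate 3. SNX20, which binds a selectin ligand of leukocytes, lay just above the filter and had 5.15, 5.31 and 5.42 in HR, against 4.69, 5.17 and 5.35 in LR, with a difference of 0.16 ± 0.07 (SE, unadjusted p = 0.0289). Of 4 tested microglial markers, 0 had an unadjusted p under 0.05, against 29.5% of all tested genes. Their mean level ranged from 8.33 to 8.99 in HR and from 8.49 to 8.94 in LR. SNX21 gave 0.19 (unadjusted p = 0.0693), with 6 of the 10 HR animals above every LR animal. SNX16, at -0.30, and SNX22, at -0.06, had unadjusted p values of 0.153 and 0.515. With the background covariate SNX22 was -0.21 (unadjusted p = 0.00859, adjusted p = 0.9997).

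In the group with an RGS or PXA domain, 1 of 4 genes had an unadjusted p under 0.05, against 29.5% of all tested genes. SNX13, which holds an RGS domain that acts on the stimulatory G protein, had 5.39, 5.84 and 6.15 in HR, against 5.10, 5.70 and 6.04 in LR on its brighter probe set. This difference of 0.25 ± 0.11 (SE, unadjusted p = 0.0313) was not shared by a second probe set, which gave -0.04 and in which LR replicate 3 stood at 7.29. SNX14, whose loss causes a cerebellar ataxia in humans, gave -0.27 ± 0.19 (SE, unadjusted p = 0.178), and -0.10 without LR replicate 3. With the first principal component it was 0.20 (unadjusted p = 0.0247, adjusted p = 0.999), so its sign depended on the model. SNX19 gave 0.05, -0.07 and 0.01 on 3 probe sets, and both SNX25 probe sets gave -0.22, none with an unadjusted p under 0.05. SNX29, which carries a RUN domain, gave 0.16 ± 0.08 (SE, unadjusted p = 0.0484) and 0.23 ± 0.11 (SE, unadjusted p = 0.0502) on its pair of probe sets. On the brighter one values were 7.07, 7.31 and 7.50 in HR, against 6.68, 7.15 and 7.31 in LR, and 5 HR animals lay above every LR animal.

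Of the 8 member genes with more than 1 tested probe set, 4 had differences of one sign, namely VPS26B, SNX25, SNX27 and SNX29, and 4 had both signs, namely SNX13, SNX18, SNX19 and SNX30. The 12 probe sets below the filter had means of 1.69 to 4.91 and differences of -0.24 to 0.21, and were not tested. Affymetrix gives the _s_ mark to probe sets whose probes match several transcripts. It is carried by the representative probe sets of VPS26A and SNX18, the dimmer ones of VPS26B and SNX25, and untested ones of SNX31.

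Most member genes followed the background mean of the array, in both directions. Over 29 genes and 20 arrays, Pearson's r ranged from -0.849 to 0.797, and 26 genes had an r with an adjusted permutation p under 0.05, 11 above 0 and 15 below. By Spearman's rho this held for 17 genes. Both correlations were computed for member genes only. No share over all genes can be set beside these counts, so they show no trait particular to the members. In 28 of the 29 genes the sign of r was that of the difference between HR and LR. The background mean was itself higher in HR, so this match is partly built in. In 24 of the 29 genes r had the same sign over all arrays, within HR and within LR. For SNX27, r was -0.849 (permutation p = 1e-05, the smallest possible, adjusted p = 9.67e-05) and rho was -0.830 (permutation p = 3e-05, adjusted p = 0.00058). Leaving out LR replicate 3 and HR replicate 4, whose background lay farthest from the median, gave r = -0.817, with -0.916 within HR and -0.731 within LR. Within the 9 LR arrays other than replicate 3, r of SNX27 was -0.535.

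VPS35 gave r = -0.795 (permutation p = 9e-05, adjusted p = 0.000373) and rho = -0.626 (permutation p = 0.00385, adjusted p = 0.0101), with r = -0.580 without those arrays, -0.644 within HR and -0.851 within LR. SNX17 gave r = 0.780 (permutation p = 0.00028, adjusted p = 0.000791) and rho = 0.627 (permutation p = 0.00379, adjusted p = 0.0101), with r = 0.492 without those arrays, 0.424 within HR and 0.872 within LR. The relation of SNX17 was thus looser once the outermost arrays were left out. SNX9 gave r = -0.569 (permutation p = 0.00723, adjusted p = 0.00887) and rho = -0.638 (permutation p = 0.00345, adjusted p = 0.0101), and r was -0.697 without those arrays, -0.781 within HR and 0.0954 within LR. The LR value of SNX9 rested on LR replicate 3, since r within the other 9 LR arrays was -0.359. Within those 9 arrays SNX17 gave 0.499 and VPS35 gave -0.581.

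**Figure D4:**
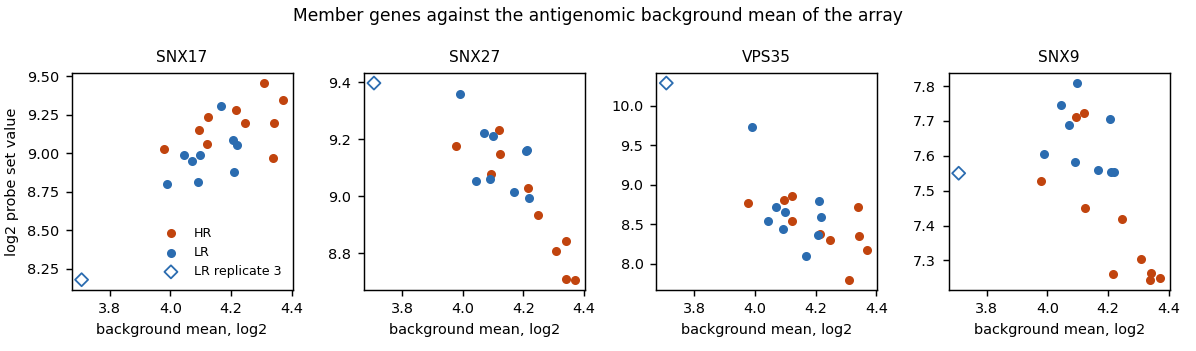
Log2 value of SNX17, SNX27, VPS35 and SNX9 (y axis, own scale in each panel) against the mean of the antigenomic background probe sets of the same array (x axis, log2), HR and LR in different colors, 1 point per animal. SNX17 goes up with background and SNX27 and VPS35 go down, and LR replicate 3, the open diamond at 3.71, lies at the far left.

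With the background mean as a covariate, the difference came nearer to 0 in 34 of the 40 tested member probe sets. This was not counted over all probe sets, so it shows no trait particular to the members. In the same fit the share of all tested probe sets with an unadjusted p under 0.05 fell from 26.3% to 4.27%. The 5 member probe sets that then had such a p were the dimmer VPS26B probe set at 0.26 (p = 0.0131), SNX22 at -0.21, SNX7 at -0.22 (p = 0.0349), SNX9 at -0.16 (p = 0.0393) and SNX1 at -0.15 (p = 0.0375). The background mean differed between the groups, so background and coping group cannot be fully told apart. With the animal number of the labels as a covariate, 4 of 40 (10%) had such a p, against 3.91% of all. These were the dimmer VPS26B probe set at 0.35, SNX11 at 0.29, SNX9 at -0.20 and SNX3 at -0.16. No member passed an adjusted p of 0.05 in any of the 32 settings, where the smallest was 0.101.

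**Figure D5:**
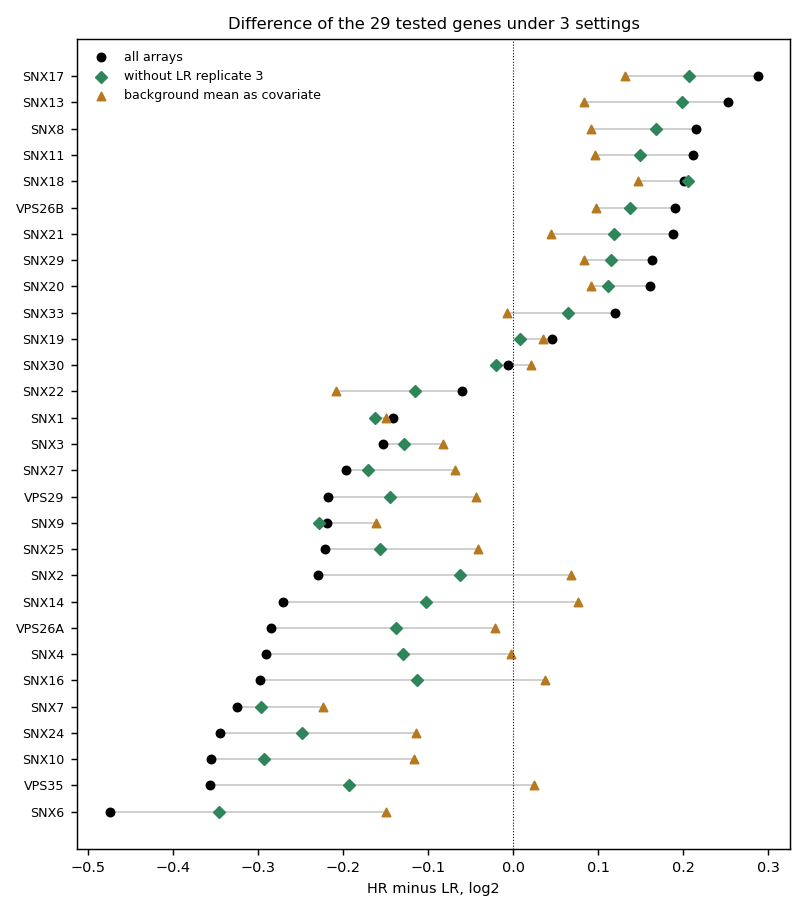
Difference of HR minus LR (x axis, log2) of the representative probe set of each of the 29 tested genes, with all arrays (circle), without LR replicate 3 (diamond) and with the background mean as a covariate (triangle). SNX6 is the lowest with all arrays, at -0.47, and comes to -0.15 with the covariate, while SNX1 and SNX9 stay near their value, at -0.15 and -0.16.

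Partners and cargo of these proteins were read from lists of known partners, and none of their genes passed over the whole table. Retriever and the CCC complex work with SNX17, and 10 of their genes were tested, with 2 higher and 2 lower in HR at an unadjusted p under 0.05, against 29.5% of all genes. COMMD6 gave -0.38, COMMD4 gave 0.25 and COMMD3 gave -0.18, and the list's median was -0.05 against 0.05 for all genes. Among 19 regulators of endosomes, 5 were higher and 1 was lower, against 14.2% and 15.3% of all genes, with a median of 0.09. EHD3, which shapes recycling tubules, averaged 6.04 ± 0.29 in HR, against 5.68 ± 0.20 in LR (SD, n = 10 each), a difference of 0.36 ± 0.11 (SE, unadjusted p = 0.00289), and was 0.35 with the background covariate. VPS18, of the tethering complexes of late endosomes, gave 0.23, and HGS, which gathers ubiquitinated cargo, gave 0.18. With the background covariate VPS18 gave 0.11 and HGS 0.07, and the regulators with an unadjusted p under 0.05 were 1 higher and 0 lower. Of the retriever and CCC genes, 0 were higher and 0 lower in that fit, where 4.01% of all genes had such a p in either direction. The 12 symbols listed for the WASH complex, which builds actin on endosomes, named no probe set in the annotation used here.

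Of 14 tested cargo receptors, 1 was higher and 5 were lower in HR at an unadjusted p under 0.05, against 14.2% and 15.3% of all genes, and the list's median was -0.10. The lipoprotein and reelin receptor VLDLR averaged 7.43 ± 0.34 in HR, against 7.77 ± 0.20 in LR (SD, n = 10 each), a difference of -0.34 ± 0.12 (SE, unadjusted p = 0.00896). APP, the amyloid precursor protein and a cargo of both SNX17 and retromer, averaged 11.83 ± 0.20 in HR, against 12.05 ± 0.13 in LR (SD, n = 10 each), a difference of -0.22 ± 0.08 (SE, unadjusted p = 0.0106). SORL1, a receptor that hands APP to retromer, gave -0.30 ± 0.12 (SE, unadjusted p = 0.0176). All 3 had adjusted p values of 0.157 to 0.160. With the background covariate VLDLR gave -0.14, APP -0.09 and SORL1 -0.11, and 0 of the 14 cargo genes had an unadjusted p under 0.05, against 4.01% of all genes.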

How the data were processed

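RNA from 20 amygdalae was hybridised to Affymetrix porcine Snowball arrays. Scanning used GCOS 1.1.1 according to the submitters' processing notes. The authors deposited log2 values, which the methods describe as background corrected, quantile normalized and summarised by robust multichip average. These values still include probe sets that the detection filter of the study would remove. Instead of that filter, the 23860 probe sets that were no array control and averaged at least 5.18 over all arrays were tested. Symbols of 26426 probe sets were read from GEO's annotation of the platform, parts of which may be outdated. The test between HR and LR was limma's moderated 2-sided test (version 3.58.1, R 4.3.3) without covariates, adjusted by Benjamini-Hochberg. Correlations and background used 100000 permutations (numpy 2.4.6). Array medians lay between 5.14 and 5.22, and the number of arrays limits the precision. Nothing in the labels gives a batch.

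Values in full are given for SNX17, the retromer core and every member gene whose representative probe set had an unadjusted p under 0.05. The 3 genes of smallest p in each partner list are named with at least their difference. The members and lists were chosen with earlier results of these data known. The procedure was tested on simulated data. Alternatives changed the filter, the normalization, the variance model, the weighting of arrays, the covariates, how a gene was summarised, and which arrays entered.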

Additional observations from a re-analysis of the deposited data

Results flagged for a closer look

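In 58 groups of values (29 genes, HR and LR), 11 held an animal at the end of the range that stood apart from its nearest neighbour by more than a set share of that range. Chance flags about 1 in 20 groups, or 2.9 here. Of the 11, 9 were LR replicate 3. That animal was the highest in LR for SNX14 at 9.23, SNX16 at 7.09, SNX4 at 7.25, VPS26A at 9.53 and VPS29 at 9.52. It was the lowest in LR for SNX17 at 8.18, SNX20 at 4.69, SNX21 at 5.41 and SNX29 at 6.68. The other cases were HR replicate 6, lowest for VPS26A at 6.82, and HR replicate 4, lowest for SNX16 at 4.40. Both belong, with LR replicates 2 and 3, to the 4 arrays that correlated least with the others.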

How the results depend on the processing

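The 0 member probe sets past an adjusted p of 0.05 by limma stayed at 0 in every setting. The 21 with an unadjusted p under 0.05 became 5 with the background mean, 8 with the first principal component and 4 with the animal number among the covariates, and 6 without the 4 arrays of lowest correlation. The share of all tested probe sets fell as well, from 26.3% to 4.27%, 4.64%, 3.91% and 5.78% in these fits. Leaving out 1 array at a time gave 14 to 22 members (35% to 55%), with the fewest without LR replicate 3, against 18.1% to 32.7% of all. SNX17 stayed above 0 in every setting and lay between 0.21 and 0.33 when 1 array was left out. It was 0.13 with the background mean, 0.07 with the first component, 0.19 with the animal number and 0.13 without the 4 arrays, each with an unadjusted p above 0.05. Over all tested members, 24 of 40 probe sets kept their sign in every setting. With the first component SNX2 turned to 0.20, SNX14 to 0.20, SNX16 to 0.13, SNX4 to 0.11, SNX33 to -0.04, and the SNX25 probe sets to 0.06 and 0.12. Of 592 values of the 18 other genes given in full, 8 turned. VPS35 turned to 0.0247 with the background mean, 0.17 with the first component and 0.0623 without the 4 arrays, and VPS26A turned to 0.13 with the first component and 0.0590 without the 4 arrays. SNX13 turned to -0.0413 and SNX18 to -0.47 on the probe set of largest SD, and SNX18 to -0.0823 on the mean of its probe sets. The cause was not tested for the covariates. No paired analysis was possible because the labels give animal numbers that no HR and LR animal share. Over the tested members the median SE was 0.10 and the median size of a difference was 0.21, so the number of arrays limits which differences can be separated from the spread between animals.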
